A study of Mus musculus with 8 samples.

Results

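Kinetochore, condensin and spindle assembly genes encode the machinery that builds a bipolar spindle, attaches chromosomes to its microtubules and folds those chromosomes into separable rods. The members were 52 genes chosen by symbol for these roles, and all 52 were found among the 35976 symbols of the count table. They fell into 9 roles: the chromosomal passenger complex (4 genes), spindle assembly factors (7), spindle pole scaffolds (3), centromere and inner kinetochore (13), outer kinetochore (8), the kinetochore corona (2), condensin (8), topoisomerase II (2) and cohesin (5). RNA sequencing was done on full-grown oocytes from mouse ovary, the stage at which the oocyte holds its stored maternal RNA and is arrested before the first meiotic division. The groups used were oocytes labelled as double knockouts (DKO) of H2A.Z.1 together with H2A.Z.2, their H2A.Z controls, Mll2 knockout (KO) oocytes and Mll2 wild type (WT) oocytes, with 2 libraries each. Both sets of controls are labelled wild type, each mutant was compared with its own controls, and each library came from a pool of about 20 oocytes stripped of the zona pellucida. H2A.Z.1 and H2A.Z.2 are histone H2A variants encoded by H2afz and H2afv, and Mll2 is a histone H3 lysine methyltransferase encoded by Kmt2b. The labels used here name neither the deletion driver nor the strain nor the age of the animals.

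The kinetochore is a layered protein assembly on the centromere. Nucleosomes with the histone variant CENP-A recruit an inner layer of CENP proteins, which carries the microtubule-binding NDC80 and MIS12 complexes, and the fibrous corona sits outermost. The chromosomal passenger complex with its Aurora kinase corrects faulty attachments, condensin and topoisomerase II compact and disentangle chromosomes, and cohesin holds sister chromatids together. Mouse oocytes have no centrioles and build the meiotic spindle from microtubule-organizing centres that contain pericentriolar scaffold proteins.

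The targeted genes were read first, in CPM, counts scaled to library size with a trimmed mean correction (TMM). H2afz stood at 322 and 317 CPM in DKO-labelled oocytes and 23.9 and 29.97 CPM in H2A.Z control oocytes, a log2 fold change of 3.56 ± 0.14 (SE) with an adjusted p of 6.63e-10 in edgeR's quasi-likelihood test. H2afv stood at 285 and 294 CPM in DKO-labelled oocytes and 108 and 107 CPM in H2A.Z control oocytes, a log2 fold change of 1.43 ± 0.10 (SE, edgeR adjusted p = 1.73e-07). Both targeted genes therefore ran opposite to what the label of a double knockout names, so every direction given for the DKO comparison is that of the libraries labelled DKO against the libraries labelled control. Kmt2b stood at 8.73 and 9.28 CPM in Mll2 KO oocytes and 41.9 and 42.4 CPM in Mll2 WT oocytes, a log2 fold change of -2.23 ± 0.15 (SE, edgeR adjusted p = 2.72e-08), which matches the label. H2afz was also higher in Mll2 KO than in Mll2 WT oocytes, with a log2 fold change of 1.28 ± 0.15 (SE, edgeR adjusted p = 1.21e-05).

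The libraries held 20309233 to 30087863 counts. The 14 oocyte markers, among them zona pellucida and oocyte-secreted genes, were detected in every library and summed to 20460 to 28470 CPM. Of the 18 granulosa and cumulus cell markers 13 to 18 were detected in a library, and they summed to 129.5 and 131.4 CPM in DKO-labelled, 95.1 and 98 CPM in H2A.Z control, 104.9 and 106.1 CPM in Mll2 KO and 93.1 and 95 CPM in Mll2 WT oocytes, with their defining hormone gene Amh at or near 0 throughout. Fshr, the receptor of follicle-stimulating hormone in these cells, was however called higher in both mutants, at 18.7 and 18.9 CPM in DKO-labelled, against 1.29 and 0.598 CPM in H2A.Z control oocytes. In the Mll2 line it had 7.25 and 7.7 CPM in Mll2 KO, against 0.992 and 0.594 CPM in Mll2 WT oocytes (edgeR adjusted p = 1.5e-07 for DKO and 1.05e-06 for Mll2 KO). Ptgs2, a prostaglandin synthase of cumulus cells, was called higher as well, at 3.68 and 3.7 CPM in DKO-labelled, against 0.259 and 0.159 CPM in H2A.Z control oocytes. In the Mll2 line it had 1.21 and 2.45 CPM in Mll2 KO, against 0.562 and 0.231 CPM in Mll2 WT oocytes (edgeR adjusted p = 4.66e-05 for DKO and 0.0025 for Mll2 KO). Of the 12 granulosa and cumulus markers tested, 4 were called higher and 2 lower in DKO-labelled oocytes and 5 higher and 2 lower in Mll2 KO oocytes. The 2 lower in DKO-labelled oocytes were Fst and Gja1, both at few CPM, with log2 fold changes of -3.27 and -3.14 (edgeR adjusted p = 0.0207 and 0.0218). The Gja1 groups overlapped, at 0.0444 and 0.19 CPM in DKO-labelled and 0.155 and 1.87 CPM in H2A.Z control oocytes, with H2A.Z control 2 alone at the high end. Gja1 was called higher in Mll2 KO oocytes, at 2.60 (edgeR adjusted p = 0.0286). The 2 lower there were Cyp19a1 and Kitl, at -0.78 and -0.83 (edgeR adjusted p = 0.000171 and 0.00496). The 12 theca and stroma markers, 5 to 8 of them detected, summed to 27.4 and 24.1 CPM in DKO-labelled, 14.3 and 16.2 CPM in H2A.Z control, 9.37 and 10.2 CPM in Mll2 KO and 9.06 and 10.3 CPM in Mll2 WT oocytes. The 12 blood, immune and endothelial markers, 4 to 7 of them detected, summed to 33.1 and 29.8 CPM in DKO-labelled, 22.8 and 24.3 CPM in H2A.Z control, 38.5 and 47 CPM in Mll2 KO and 37.7 and 36.7 CPM in Mll2 WT oocytes, with the haemoglobin genes and Cdh5 at 0. The sums of these 3 lists were thus higher in both DKO-labelled libraries than in both controls. Single genes weighed heavily in them. Cyp19a1 and Nr5a2 of the granulosa list had means of 56.8 and 39 CPM in DKO-labelled, against 53.1 and 29.8 CPM in H2A.Z control oocytes. In the Mll2 line they had 28.9 and 57.4 CPM in Mll2 KO, against 49.5 and 34.2 CPM in Mll2 WT oocytes. Nr5a2 was called higher in both mutants (edgeR adjusted p = 0.0228 for DKO and 0.00023 for Mll2 KO). Cyp11a1 of the theca list had a mean of 20 CPM in DKO-labelled and 10.6 CPM in H2A.Z control oocytes. Pecam1 of the blood list had 28.4 and 19.2 CPM. They were the only calls among the 4 theca and 4 blood markers tested in this comparison, while Cd68 and Kdr lay lower without a call. The sums of the granulosa and blood lists were also higher in both Mll2 KO libraries than in both Mll2 WT libraries. Pecam1 had means of 37.2 and 32.7 CPM in these groups and was not called. Of the other blood markers tested, Kdr and Tie1 were called higher, at 1.42 and 1.09 (edgeR adjusted p = 0.0329 and 0.027). Cd68 was called lower, at -1.01 (edgeR adjusted p = 0.0245). The part of these lists in the member results was not tested, and in pooled oocytes fewer expressing cells and less RNA per cell cannot be told apart.

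All 52 members passed the filter on low counts. In the DKO-labelled oocytes 9 members were called higher and 11 lower at an adjusted p under 0.05, and 32 were not called. Over all 16847 genes tested, 19.4% were called higher and 11.5% lower, so the called share of members, 38.5%, stood against 30.9% of all genes. The Mll2 KO oocytes had 3 members called higher and 18 lower, with 31 not called, where 14.4% of all genes were called higher and 16.2% lower (30.6% in either direction). The members' called lower share was 34.6% in Mll2 KO and 21.2% in DKO-labelled oocytes, and their called higher share was 5.77% in Mll2 KO and 17.3% in DKO-labelled oocytes. Most called changes were small: only Aurkb and Cenpi in DKO-labelled oocytes and Cenpi and Top2b in Mll2 KO oocytes were called lower by more than 2-fold, where 5.86% and 6.73% of all tested genes were, and no member was called higher by more than 2-fold in either, where 5.82% and 5.91% of all tested genes were. The median log2 fold change of the members was -0.03 in DKO-labelled oocytes, 0.16 below the median of all tested genes. For Mll2 KO oocytes the members' median was -0.16, or 0.18 below that of all tested genes. Groups without overlap were common. Both DKO-labelled libraries stood above both controls in 43.4% of all tested genes and below both in 26.9%. Of the members 18 stood above and 23 below. For Mll2 KO the shares were 32.2% and 32%, and the members 12 and 28. A lack of overlap given for a gene is to be read against these shares.

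Counts of calls depended on how libraries were scaled. With library size alone in place of TMM the median log2 fold change of all genes moved to 0.0018, against 0.12 with TMM, in the DKO comparison, and to 0.14, against 0.017, in the Mll2 comparison. The members called higher and lower were then 5 and 16 in DKO-labelled oocytes and 9 and 13 in Mll2 KO oocytes. Of all 16847 genes tested, 2063 and 2467 were then called higher and lower in the DKO comparison, and 3418 and 2013 in the Mll2 comparison. Higher calls made up 45.5% of all calls in the DKO comparison with library size alone, 56.9% with relative log expression (RLE) scaling and 62.9% with TMM, and 62.9%, 49.5% and 47.1% in the same order in the Mll2 comparison. With the H2A.Z line fitted alone, 9 members were called higher and 23 lower, and with the Mll2 line fitted alone 1 was called higher and 12 lower. Over all genes, 3292 of 15721 were called higher and 3485 lower with the H2A.Z line alone. With the Mll2 line alone 1636 of 16127 were called higher and 1830 lower. The median of all genes in the DKO comparison was 0.0056 with the H2A.Z line alone. It was 0.0032 without Mll2 WT 2, 0.0037 without Mll2 KO 1 and 0.0032 without Mll2 KO 2. These medians were near the 0.0018 with library size alone, and the members' median was -0.15 in each of these left-out runs. The part of this shift in the counts was not tested. Single libraries moved the counts as well. Members called higher in DKO-labelled oocytes were 5 without H2A.Z control 2, DKO 1 or Mll2 WT 2, and those called lower were 4 without H2A.Z control 1 or DKO 2, 6 without H2A.Z control 2, 7 without DKO 1 and 21 without Mll2 KO 1 or Mll2 KO 2. Members called higher in Mll2 KO oocytes were 1 without Mll2 WT 1 or Mll2 WT 2 and 7 without Mll2 KO 1. No called member changed direction under any alternative run, and 7 of the 20 DKO calls and 11 of the 21 Mll2 KO calls held under all of them. The 7 were Aurkb, Tacc3, Cdk5rap2, Cenpa, Cenph, Cenpi and Rad21, and the 11 were Tacc1, Tacc3, Prc1, Cenpi, Pmf1, Cenpf, Smc2, Smc4, Ncapg, Top2a and Top2b. For the other called members, the left-out libraries or the settings with an adjusted p above 0.05 are named with the gene, except the fit with a replicate block, whose losses stand with the alternatives at the end.

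**Figure D1:**
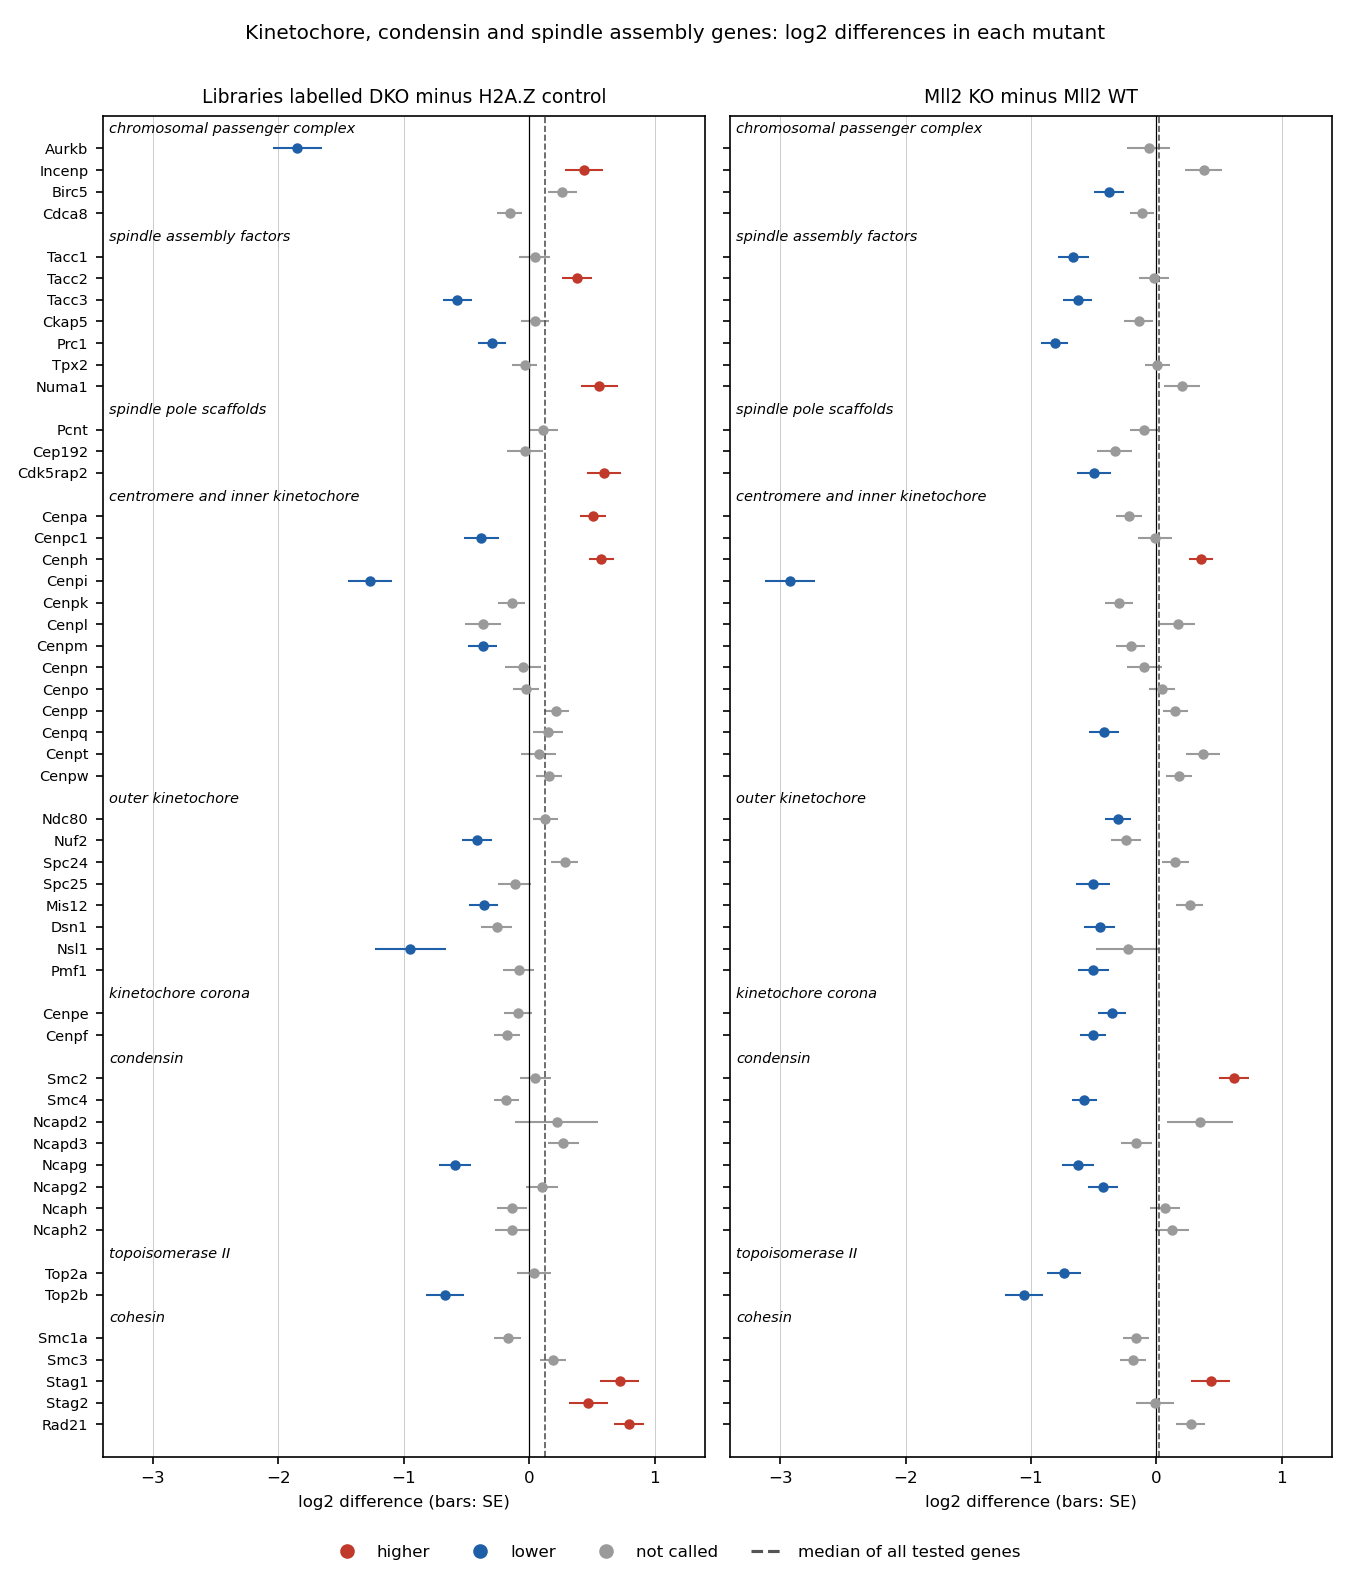
Log2 fold change of each of the 52 members in DKO-labelled oocytes against H2A.Z control oocytes (left) and in Mll2 KO against Mll2 WT oocytes (right), with bars for the SE, grouped by role; red points were called higher, blue points lower and grey points were not called, and the dashed line marks the median of all tested genes. Cenpi stands lowest in the Mll2 panel at -2.92 and Aurkb lowest in the DKO panel at -1.85.

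Levels were compared between genes as mean CPM per kilobase of the principal transcript. Birc5, which encodes the passenger protein survivin, was the most abundant member in all 4 groups, at 2382 ± 96.3 in DKO-labelled, 1985 ± 44.9 in H2A.Z control, 923 ± 138 in Mll2 KO and 1200.3 ± 84.3 CPM per kilobase in Mll2 WT oocytes (SD, n = 2 each). Tacc3, a spindle microtubule protein, followed in every group, with 522 ± 15.2, 777 ± 26.1, 302 ± 42.1 and 467 ± 32.4 CPM per kilobase in the same order. Subunits of one complex were not level with each other. The passenger kinase Aurkb had 2.02 ± 0.485 CPM per kilobase in DKO-labelled, 7.29 ± 0.901 in H2A.Z control, 10.4 ± 0.208 in Mll2 KO and 10.9 ± 0.186 in Mll2 WT oocytes, far under its partner Birc5. The condensin ATPase subunits differed likewise, with Smc4 at 187 ± 0.0713, 212 ± 11.8, 178 ± 1.34 and 266 ± 13.2 and Smc2 at 16.7 ± 0.687, 16.2 ± 0.247, 12.4 ± 0.729 and 8.09 ± 1.3 CPM per kilobase in that order of groups. Near the bottom in the H2A.Z and Mll2 WT groups were Nsl1, a MIS12 complex subunit, with 0.401 ± 0.127, 0.776 ± 0.0928, 0.773 ± 0.0665 and 0.903 ± 0.00325 CPM per kilobase, and Ncapd2, a condensin I subunit, with 0.485 ± 0.17, 0.411 ± 0.076, 1.84 ± 0.628 and 1.45 ± 0.0379. In Mll2 KO oocytes the lowest of all 52 was Cenpi, followed upward by Nsl1 and Top2b.

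**Figure D2:**
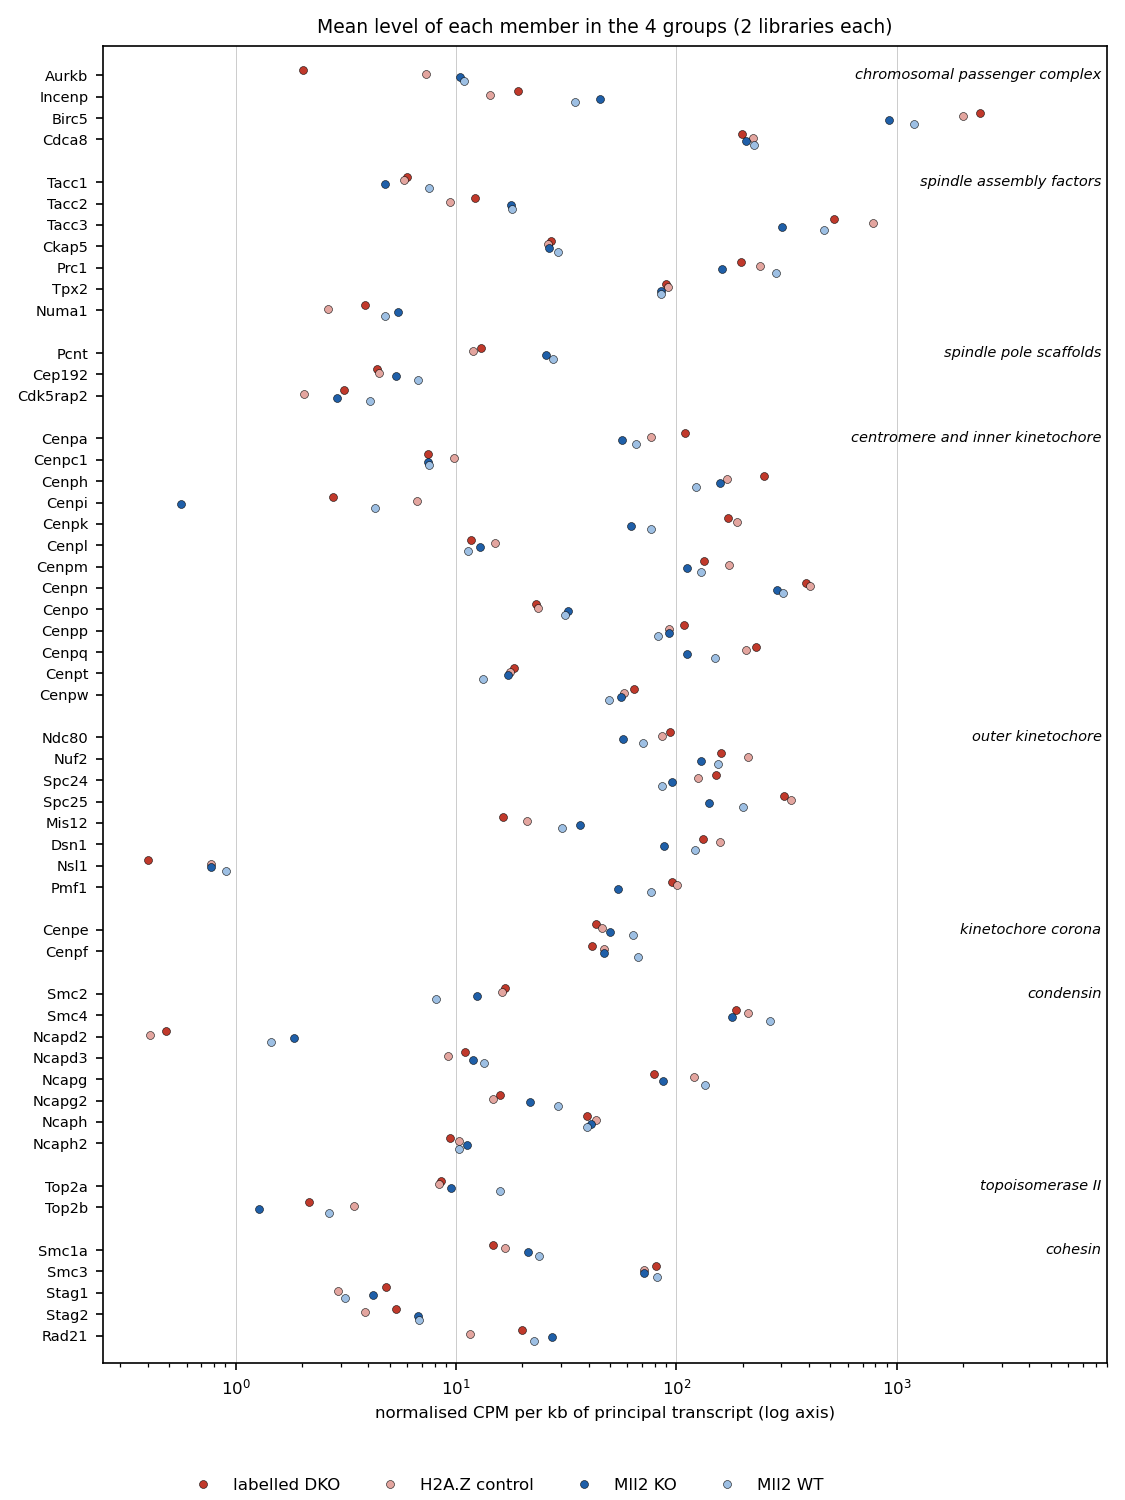
Level of each of the 52 members in CPM per kilobase of principal transcript on a log axis, with a point for the mean of the 2 libraries of each group. Birc5 lies at the top in all groups, and Cenpi, Nsl1 and Top2b lie at the bottom in Mll2 KO oocytes.

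Promoter windows from RefSeq (GRCm38.p6, 250 bases before to 50 after the gene start) were matched by symbol for 42 of the 52 members. Of the 7 members called in the same direction in both mutants, 4 are shown as examples chosen after their values were seen, Cenpi, Prc1 and Top2b lower and Cenph higher. Tacc3, Ncapg and Stag1 are not shown. Capitals mark matches of 2 short motifs: TTTGAA, the core of the cell cycle genes homology region, and CCAAT, the letters bound by NF-Y, each searched on both strands, so that a match on the other strand reads TTCAAA or ATTGG. The motifs do not overlap each other in these windows. The Cenpi window lies at chrX:134307834-134308133 on the plus strand, Prc1 at chr7:80294201-80294500 on the plus strand, Top2b at chr14:16364956-16365255 on the plus strand and Cenph at chr13:100775850-100776149 on the minus strand.
Cenpi: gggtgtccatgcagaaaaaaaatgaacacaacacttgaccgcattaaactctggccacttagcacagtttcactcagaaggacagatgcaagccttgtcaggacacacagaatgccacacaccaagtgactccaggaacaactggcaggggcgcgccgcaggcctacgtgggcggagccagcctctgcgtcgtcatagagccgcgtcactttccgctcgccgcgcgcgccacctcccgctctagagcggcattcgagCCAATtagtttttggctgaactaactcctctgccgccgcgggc
Prc1: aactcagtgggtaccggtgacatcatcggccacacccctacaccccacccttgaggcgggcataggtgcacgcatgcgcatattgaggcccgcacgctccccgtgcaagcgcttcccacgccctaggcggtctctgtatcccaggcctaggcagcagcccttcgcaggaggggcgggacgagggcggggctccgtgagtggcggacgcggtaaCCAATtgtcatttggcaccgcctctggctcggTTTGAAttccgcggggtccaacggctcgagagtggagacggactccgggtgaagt
Top2b: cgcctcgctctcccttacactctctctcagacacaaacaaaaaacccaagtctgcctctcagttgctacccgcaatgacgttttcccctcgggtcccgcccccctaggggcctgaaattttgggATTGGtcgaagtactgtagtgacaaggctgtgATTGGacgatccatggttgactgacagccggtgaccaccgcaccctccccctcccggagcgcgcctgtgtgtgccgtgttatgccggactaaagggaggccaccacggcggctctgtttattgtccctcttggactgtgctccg
Cenph: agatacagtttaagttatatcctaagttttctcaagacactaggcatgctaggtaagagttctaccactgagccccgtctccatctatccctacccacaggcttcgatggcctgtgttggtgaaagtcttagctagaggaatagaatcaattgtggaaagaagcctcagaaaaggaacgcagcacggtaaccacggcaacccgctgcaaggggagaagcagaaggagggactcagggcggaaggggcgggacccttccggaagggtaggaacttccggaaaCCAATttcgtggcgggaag
Counted from the gene start as position 1, with no position 0, CCAAT starts at position 8 in Cenpi, at -37 in Prc1 and at 32 in Cenph, and its reverse complement starts at -126 and -94 in Top2b. Prc1 alone of these 4 holds TTTGAA, at position -5. The windows hold 22 CpG dinucleotides in Cenpi, 27 in Prc1, 18 in Top2b and 12 in Cenph.

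Over the 42 members with a window, TTTGAA was found in 17 (40.5%) and CCAAT in 27 (64.3%). Among 15880 windows of 12440 tested genes, 14.1% held TTTGAA and 37.7% held CCAAT. The median number of CpG dinucleotides was 23 in the member windows and 17 in the windows of tested genes. Of the 16 members with a window that were called lower in Mll2 KO oocytes, 9 held TTTGAA and 10 held CCAAT, against 7 and 14 of the 23 not called and 1 and 3 of the 3 called higher. In the DKO comparison TTTGAA was in 2 and CCAAT in 7 of the 9 called lower, in 2 and 4 of the 6 called higher, and in 13 and 16 of the 27 not called. A match describes these letters in a window and no binding was measured.

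Of the chromosomal passenger complex, 1 of 4 members was called higher and 1 lower in DKO-labelled oocytes, and 1 was called lower in Mll2 KO oocytes. Among all tested genes 19.4% were called higher and 11.5% lower in DKO-labelled oocytes, and 14.4% and 16.2% in Mll2 KO oocytes. The counts of each role are to be read against these shares. Aurkb, the Aurora B kinase that destabilizes faulty kinetochore attachments, had 4.61 and 3.28 CPM in DKO-labelled oocytes and 13 and 15.5 CPM in H2A.Z control oocytes. In Mll2 KO oocytes it had 20.03 and 20.6 CPM, against 21.5 and 20.9 CPM in Mll2 WT oocytes. The DKO-labelled libraries were the lowest of the 8 and stood clear of their controls, while the Mll2 groups lay close together without overlapping. Aurkb fell 3.6-fold in DKO-labelled oocytes (log2 fold change -1.85 ± 0.20 SE, edgeR adjusted p = 6.79e-06) and was not called in Mll2 KO oocytes (log2 fold change -0.06 ± 0.17 SE, edgeR adjusted p = 0.811). The gene lies at chr11:69045647-69051664 on mm10, and no exon of another gene was found over its own.

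Incenp, the scaffold that binds and activates the Aurora kinase, had 68.1 and 55.9 CPM in DKO-labelled oocytes, against 44.9 and 46.8 CPM in H2A.Z control oocytes, and 119 and 173 CPM in Mll2 KO oocytes, against 115 and 109 CPM in Mll2 WT oocytes. All mutant libraries were above their controls, with Mll2 KO 2 the highest by far. It was called higher in DKO-labelled oocytes (log2 fold change 0.43 ± 0.15 SE, edgeR adjusted p = 0.0413) and not in Mll2 KO oocytes (log2 fold change 0.38 ± 0.15 SE, edgeR adjusted p = 0.0638). The DKO call was not stable, with an adjusted p between 0.0553 and 0.325 with each of H2A.Z control 1, H2A.Z control 2, DKO 1, Mll2 WT 1 and Mll2 WT 2 left out in turn, and 0.0746 with relative log expression scaling, 0.17 with library size alone and 0.0757 with DESeq2, while its log2 fold change was 0.29 without DKO 1. Birc5 had 2191 and 2320.1 CPM in DKO-labelled oocytes, against 1909.9 and 1849.8 CPM in H2A.Z control oocytes, and 966 and 782 CPM in Mll2 KO oocytes, against 1080.3 and 1193 CPM in Mll2 WT oocytes. Its groups did not overlap in either line, with the DKO-labelled libraries above and the Mll2 KO libraries below their controls. Birc5 was called lower in Mll2 KO oocytes (log2 fold change -0.38 ± 0.12 SE, edgeR adjusted p = 0.0225), and not in DKO-labelled oocytes (log2 fold change 0.26 ± 0.12 SE, edgeR adjusted p = 0.1). The adjusted p of the Mll2 KO call was 0.103 without Mll2 WT 2, and 0.063 with library size alone and 0.104 with the line fitted alone. Cdca8, which encodes borealin, was called in neither comparison, with log2 fold changes of -0.16 and -0.12. Aurkc, the oocyte-rich Aurora kinase that can also join this complex and was not among the members, had 177 and 179 CPM in DKO-labelled oocytes, against 233 and 222 CPM in H2A.Z control oocytes, and 181 and 157 CPM in Mll2 KO oocytes, against 218 and 211 CPM in Mll2 WT oocytes. It was called lower in both, at a log2 fold change of -0.35 ± 0.10 (SE) in DKO-labelled oocytes (edgeR adjusted p = 0.0154) and -0.34 ± 0.10 (SE) in Mll2 KO oocytes (edgeR adjusted p = 0.0188), with an adjusted p between 0.0692 and 0.127 in the DKO comparison without H2A.Z control 1, H2A.Z control 2, DKO 1 or DKO 2. In the Mll2 comparison its adjusted p was 0.113 without Mll2 WT 1, 0.0536 without Mll2 WT 2, 0.0952 with library size alone and 0.0882 with the line fitted alone.

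Of the 7 spindle assembly factors, 2 were called higher and 2 lower in DKO-labelled oocytes, and 3 were called lower and none higher in Mll2 KO oocytes. The shares of all tested genes were 19.4% higher and 11.5% lower, and 16.2% lower and 14.4% higher, in the same order. Tacc3, which stabilizes spindle microtubules together with the polymerase encoded by Ckap5, had 1545 and 1483 CPM in DKO-labelled oocytes, against 2306 and 2199.6 CPM in H2A.Z control oocytes, and 962 and 789.5 CPM in Mll2 KO oocytes, against 1287 and 1419.7 CPM in Mll2 WT oocytes. Each mutant library was below both of its controls, and the size of the fall was close in both mutants. The log2 fold changes were -0.57 ± 0.12 (SE) in DKO-labelled and -0.63 ± 0.12 (SE) in Mll2 KO oocytes (edgeR adjusted p = 0.00161 and 0.000828). Its exons overlap 289 bases of Tmem129 on the opposite strand, and Tmem129 had log2 fold changes of -0.87 and -0.63 (edgeR adjusted p = 0.0531 and 0.139). Tmem129 had 1.46 to 3.46 CPM over the 8 libraries. Whether strand was used in counting is not given in the sources used here, so reads from overlapping genes on opposite strands may not have been told apart.

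Prc1, which bundles antiparallel microtubules at the spindle midzone, had 571 and 613 CPM in DKO-labelled oocytes, against 794 and 660.1 CPM in H2A.Z control oocytes, and 488 and 484 CPM in Mll2 KO oocytes, against 844 and 861 CPM in Mll2 WT oocytes. Mutant and control libraries did not overlap in either line, and H2A.Z control 1 stood above H2A.Z control 2 by more than that control stood above the DKO-labelled libraries. The fall was called in both, at a log2 fold change of -0.81 ± 0.11 (SE) in Mll2 KO oocytes (edgeR adjusted p = 5.12e-05) and -0.30 ± 0.11 (SE) in DKO-labelled oocytes (edgeR adjusted p = 0.0485). The DKO call rests on single libraries, with an adjusted p between 0.0769 and 0.47 with each of H2A.Z control 1, DKO 1, DKO 2 and Mll2 WT 1 left out in turn, while its log2 fold change was -0.15 without H2A.Z control 1. Exons of Prc1 overlap 911 bases of Rccd1 on the opposite strand, whose log2 fold changes were 0.14 and 0.62 (edgeR adjusted p = 0.772 and 0.142). Rccd1 had 1.45 to 2.52 CPM over the 8 libraries. The annotated gene Gm13176 matches 476 bases of the Prc1 transcript at 93.3% identity.

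The Tacc family did not move as a unit. Tacc1, whose protein shares the coiled-coil domain of Tacc3, had 45.9 and 47.2 CPM in DKO-labelled oocytes, against 46.1 and 44.4 CPM in H2A.Z control oocytes, and 34.2 and 39.9 CPM in Mll2 KO oocytes, against 59.7 and 57.5 CPM in Mll2 WT oocytes. The H2A.Z groups overlapped, and both Mll2 KO libraries were below both WT libraries. Tacc1 fell in Mll2 KO oocytes (log2 fold change -0.66 ± 0.12 SE, edgeR adjusted p = 0.000778) and was not called in DKO-labelled oocytes (log2 fold change 0.04 ± 0.12 SE, edgeR adjusted p = 0.824). Tacc2 had 106 and 115 CPM in DKO-labelled oocytes, against 87.1 and 82.8 CPM in H2A.Z control oocytes, and 140.2 and 180.3 CPM in Mll2 KO oocytes, against 169 and 156 CPM in Mll2 WT oocytes. Its Mll2 KO libraries fell on either side of the WT range, and its DKO-labelled libraries were above both controls. It was called higher in DKO-labelled oocytes (log2 fold change 0.38 ± 0.12 SE, edgeR adjusted p = 0.0261), with an adjusted p between 0.0714 and 0.177 with each of H2A.Z control 1, H2A.Z control 2, DKO 1, DKO 2 and Mll2 WT 2 left out in turn, and 0.0556 with relative log expression scaling, 0.141 with library size alone and 0.0633 with DESeq2.

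Numa1, which gathers microtubule minus ends at spindle poles, had 30.7 and 25.1 CPM in DKO-labelled oocytes, against 17.8 and 20.04 CPM in H2A.Z control oocytes, and 37.1 and 41.6 CPM in Mll2 KO oocytes, against 36.2 and 32.1 CPM in Mll2 WT oocytes. Both mutants stood above their controls, with the wider gap in the H2A.Z line. It was called higher in DKO-labelled oocytes (log2 fold change 0.56 ± 0.15 SE, edgeR adjusted p = 0.0104) and not in Mll2 KO oocytes (edgeR adjusted p = 0.299). The adjusted p of the DKO call was 0.107 without H2A.Z control 1, 0.143 without DKO 1 and 0.0654 without Mll2 WT 2, and 0.0564 with library size alone. Ckap5, the microtubule polymerase, and Tpx2, which activates Aurora A in the Ran pathway of spindle assembly, were called in neither comparison. Their log2 fold changes were 0.04 and -0.04 in DKO-labelled oocytes and -0.14 and 0.01 in Mll2 KO oocytes.

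Among the 3 spindle pole scaffolds, where 30.9% of all tested genes were called in the DKO and 30.6% in the Mll2 comparison, Cdk5rap2 was the only one called. This pericentriolar protein, which anchors gamma-tubulin complexes, had 37.9 and 35.3 CPM in DKO-labelled oocytes, against 24.4 and 24 CPM in H2A.Z control oocytes, and 32.8 and 35.7 CPM in Mll2 KO oocytes, against 53.1 and 43.7 CPM in Mll2 WT oocytes. Its groups did not overlap in either line, with the DKO-labelled libraries above and the Mll2 KO libraries below their controls. Cdk5rap2 rose in DKO-labelled oocytes (log2 fold change 0.60 ± 0.14 SE, edgeR adjusted p = 0.00383) and fell in Mll2 KO oocytes (log2 fold change -0.50 ± 0.13 SE, edgeR adjusted p = 0.01), the only member called in opposite directions. The adjusted p of the Mll2 KO call was 0.151 without Mll2 WT 1, and 0.0518 with library size alone. A processed pseudogene on the same strand shares 365 bases of its exons. Pcnt, which encodes pericentrin, and Cep192, which recruits Aurora A and polo kinase to the pole, had log2 fold changes of 0.11 and -0.03 in DKO-labelled oocytes and -0.10 and -0.33 in Mll2 KO oocytes, none of them called.

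Of the 13 centromere and inner kinetochore genes, 2 were called higher and 3 lower in DKO-labelled oocytes, and 1 was called higher and 2 lower in Mll2 KO oocytes. The shares of all tested genes were 19.4% and 11.5%, and 14.4% and 16.2%, in the same order. The 2 called higher in DKO-labelled and the 2 called lower in Mll2 KO oocytes were near these shares. Cenpi, a subunit of the CENP-H/I/K/M complex of the inner kinetochore, changed most. It had 8.29 and 9.49 CPM in DKO-labelled oocytes, against 21.4 and 21.4 CPM in H2A.Z control oocytes, and 1.65 and 1.98 CPM in Mll2 KO oocytes, against 14.1 and 13.5 CPM in Mll2 WT oocytes. All mutant libraries were under all control libraries, and the replicates of each group were close. Cenpi fell 7.58-fold in Mll2 KO oocytes (log2 fold change -2.92 ± 0.20 SE, edgeR adjusted p = 3.6e-08) and 2.41-fold in DKO-labelled oocytes (log2 fold change -1.27 ± 0.17 SE, edgeR adjusted p = 7.97e-05). The gene lies at chrX:134308084-134362639 on mm10, with its promoter window printed above, and neither an overlapping exon nor a near-identical copy was found for it.

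Cenph, the partner of Cenpi in the same complex, went the other way. It had 308 and 320.4 CPM in DKO-labelled oocytes, against 217 and 205 CPM in H2A.Z control oocytes, and 189 and 205 CPM in Mll2 KO oocytes, against 148 and 160.0 CPM in Mll2 WT oocytes. Mutant libraries were above both of their controls in each line. The log2 fold changes were 0.58 ± 0.10 (SE) in DKO-labelled oocytes (edgeR adjusted p = 0.000524) and 0.36 ± 0.10 (SE) in Mll2 KO oocytes (edgeR adjusted p = 0.0131). In the Mll2 comparison the adjusted p was 0.145 without Mll2 WT 1 and 0.053 without Mll2 WT 2, and 0.0689 with the line fitted alone. Cenpm, another subunit of this complex, had 152 and 169 CPM in DKO-labelled oocytes, against 199.6 and 216 CPM in H2A.Z control oocytes, and 151 and 119 CPM in Mll2 KO oocytes, against 149 and 163 CPM in Mll2 WT oocytes. The H2A.Z groups were apart and the Mll2 groups overlapped. Cenpm was called lower in DKO-labelled oocytes (log2 fold change -0.37 ± 0.12 SE, edgeR adjusted p = 0.0267), with an adjusted p between 0.0649 and 0.236 with each of H2A.Z control 1, H2A.Z control 2, DKO 1 and DKO 2 left out in turn, and was not called in Mll2 KO oocytes (edgeR adjusted p = 0.202). Cenpk, the fourth subunit, was not called, with log2 fold changes of -0.14 and -0.30 (edgeR adjusted p = 0.351 and 0.05). The second was at the edge of the threshold. Cenpk had 79.4 and 72.8 CPM in Mll2 KO oocytes, against 88.1 and 99.2 CPM in Mll2 WT oocytes.

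Cenpa, the histone H3 variant that marks centromeric chromatin, had 155 and 166 CPM in DKO-labelled oocytes, against 108 and 117 CPM in H2A.Z control oocytes, and 84.5 and 80.9 CPM in Mll2 KO oocytes, against 91.3 and 101 CPM in Mll2 WT oocytes. The DKO-labelled libraries were the highest of all 8, and the Mll2 KO libraries the lowest. Cenpa rose in DKO-labelled oocytes (log2 fold change 0.51 ± 0.10 SE, edgeR adjusted p = 0.00196), while the Mll2 KO value was not called (log2 fold change -0.22 ± 0.10 SE, edgeR adjusted p = 0.126). Cenpc1, which encodes CENP-C and links CENP-A nucleosomes to the MIS12 complex, had 22.9 and 25 CPM in DKO-labelled oocytes, against 31.9 and 30.5 CPM in H2A.Z control oocytes, and 25.4 and 22.4 CPM in Mll2 KO oocytes, against 24.7 and 23.4 CPM in Mll2 WT oocytes. It was lower in both DKO-labelled libraries, and the Mll2 groups overlapped. The DKO call (log2 fold change -0.38 ± 0.14 SE, edgeR adjusted p = 0.0476) was at the edge of the threshold, with an adjusted p between 0.0752 and 0.261 with each of H2A.Z control 1, H2A.Z control 2, DKO 1, DKO 2 and Mll2 WT 1 left out in turn, and 0.0751 with no filter. The annotated gene Gm13477 matches 84.4% of the Cenpc1 transcript at 93.2% identity, so the assignment of its reads is uncertain.

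Cenpq, a subunit of the CENP-O/P/Q/R/U complex, had 419 and 472 CPM in DKO-labelled oocytes, against 414 and 391 CPM in H2A.Z control oocytes, and 242 and 194 CPM in Mll2 KO oocytes, against 270.1 and 313 CPM in Mll2 WT oocytes. The Mll2 KO libraries were below both WT libraries and the DKO-labelled libraries slightly above both controls. Cenpq was called lower in Mll2 KO oocytes (log2 fold change -0.42 ± 0.12 SE, edgeR adjusted p = 0.0158), with an adjusted p of 0.124 without Mll2 WT 2, and 0.0712 with the line fitted alone, and was not called in DKO-labelled oocytes (edgeR adjusted p = 0.381). Its exons overlap 95 bases of Mut on the opposite strand, whose log2 fold change was -0.29 in Mll2 KO oocytes (edgeR adjusted p = 0.204). Mut had 5.9 to 19.4 CPM over the 8 libraries. The remaining inner kinetochore genes, Cenpl, Cenpn, Cenpo, Cenpp, Cenpt and Cenpw, were called in neither comparison, and the nearest to the threshold were Cenpt in Mll2 KO oocytes (log2 fold change 0.37, edgeR adjusted p = 0.0501) and Cenpl in DKO-labelled oocytes (log2 fold change -0.37, edgeR adjusted p = 0.0616).

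The outer kinetochore had lower calls alone, 3 of 8 members in DKO-labelled oocytes and 4 of 8 in Mll2 KO oocytes, and no member was on both lists. Among all tested genes 11.5% were called lower in DKO-labelled oocytes and 16.2% in Mll2 KO oocytes. The median log2 fold change of the 8 was 0.31 below that of all genes in DKO-labelled oocytes and 0.29 below it in Mll2 KO oocytes, and stayed within 0.01 of these under each scaling. With the lines fitted alone 6 were called lower in DKO-labelled and 1 in Mll2 KO oocytes, and with library size alone 4 were called lower in DKO-labelled oocytes and 3 lower and 1 higher in Mll2 KO oocytes. Over all genes the lower calls were 3485 of 15721 and 1830 of 16127 with the lines alone. They were 2467 and 2013 of 16847 with library size alone. In DKO-labelled oocytes the called genes were Nuf2, Mis12 and Nsl1. Nuf2, a coiled-coil subunit of the NDC80 complex, had 376 and 388 CPM in DKO-labelled oocytes, against 528 and 489 CPM in H2A.Z control oocytes, and 356 and 270.4 CPM in Mll2 KO oocytes, against 362 and 381 CPM in Mll2 WT oocytes. Its DKO-labelled and control libraries were well apart, and in the Mll2 line Mll2 KO 2 stood alone at the low end. The fall was called in DKO-labelled oocytes (log2 fold change -0.41 ± 0.12 SE, edgeR adjusted p = 0.0162), with an adjusted p between 0.0565 and 0.14 with each of H2A.Z control 1, H2A.Z control 2, DKO 1 and DKO 2 left out in turn. Mis12, the founding subunit of the MIS12 complex, had 52.6 and 45.3 CPM in DKO-labelled oocytes, against 62 and 64 CPM in H2A.Z control oocytes, and 113 and 106 CPM in Mll2 KO oocytes, against 94.8 and 87.5 CPM in Mll2 WT oocytes. It was below its controls in the first line and above them in the second. The DKO call (log2 fold change -0.36 ± 0.11 SE, edgeR adjusted p = 0.023) had an adjusted p of 0.0957 without H2A.Z control 1, 0.14 without H2A.Z control 2 and 0.232 without DKO 2. The Mll2 KO value was not called (log2 fold change 0.26 ± 0.11 SE, edgeR adjusted p = 0.0809), and the opposite-strand neighbour Derl2, which overlaps 231 bases of Mis12, was called higher there (log2 fold change 0.74, edgeR adjusted p = 0.000253). Derl2 had 33.5 to 58 CPM over the 8 libraries, and its part in the Mis12 values was not tested.

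Nsl1, another MIS12 complex subunit, was low throughout, with 2.4 and 1.52 CPM in DKO-labelled oocytes, against 3.46 and 4.1 CPM in H2A.Z control oocytes, and 3.54 and 4 CPM in Mll2 KO oocytes, against 4.4 and 4.42 CPM in Mll2 WT oocytes. Both DKO-labelled libraries were the lowest of the 8. The fall was called in DKO-labelled oocytes (log2 fold change -0.95 ± 0.28 SE, edgeR adjusted p = 0.0182), with an adjusted p of 0.141 without H2A.Z control 2 and 0.175 without DKO 2. In Mll2 KO oocytes the called genes were Pmf1, Spc25, Dsn1 and Ndc80. Pmf1, also of the MIS12 complex, had 93.5 and 98 CPM in DKO-labelled oocytes, against 104 and 99.1 CPM in H2A.Z control oocytes, and 62.1 and 47 CPM in Mll2 KO oocytes, against 76.7 and 77.9 CPM in Mll2 WT oocytes. Dsn1, its partner in the MIS12 complex, had 335 and 361 CPM in DKO-labelled oocytes, against 438 and 395 CPM in H2A.Z control oocytes, and 264 and 201 CPM in Mll2 KO oocytes, against 312 and 323 CPM in Mll2 WT oocytes. In both genes the Mll2 KO libraries were the lowest of the 8, with Mll2 KO 2 below Mll2 KO 1. The log2 fold changes in Mll2 KO oocytes were -0.50 ± 0.12 (SE) for Pmf1 (edgeR adjusted p = 0.0067) and -0.45 ± 0.12 (SE) for Dsn1 (edgeR adjusted p = 0.0107), the second with an adjusted p of 0.0569 with the line fitted alone.

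Spc25, a subunit of the NDC80 complex that binds its MIS12 partner, had 353 and 379 CPM in DKO-labelled oocytes, against 413 and 381 CPM in H2A.Z control oocytes, and 195 and 141 CPM in Mll2 KO oocytes, against 222 and 257 CPM in Mll2 WT oocytes. The Mll2 KO libraries were the lowest of the 8, and Mll2 KO 2 was under Mll2 KO 1. It was called lower in Mll2 KO oocytes (log2 fold change -0.51 ± 0.13 SE, edgeR adjusted p = 0.00952), with an adjusted p of 0.075 without Mll2 WT 2, and 0.0544 with the line fitted alone, while its log2 fold change was -0.33 without Mll2 KO 2. Ndc80, whose head binds microtubules, had 204 and 209 CPM in DKO-labelled oocytes, against 190.1 and 187 CPM in H2A.Z control oocytes, and 129.7 and 121 CPM in Mll2 KO oocytes, against 145 and 166 CPM in Mll2 WT oocytes. Its groups did not overlap in either line but lay close. The Mll2 KO call (log2 fold change -0.30 ± 0.10 SE, edgeR adjusted p = 0.0328) had an adjusted p between 0.0561 and 0.249 with each of H2A.Z control 1, H2A.Z control 2, DKO 1, DKO 2 and Mll2 WT 2 left out in turn, and 0.163 with library size alone and 0.124 with the line fitted alone, and 763 bases of its transcript match 2700099C18Rik at 92.7% identity. Spc24 completes the NDC80 complex and was called in neither comparison, with log2 fold changes of 0.28 in DKO-labelled and 0.15 in Mll2 KO oocytes.

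Both corona genes were called lower in Mll2 KO oocytes, where 16.2% of all tested genes were, and neither was called in DKO-labelled oocytes. Cenpf, a large coiled-coil protein of the corona, had 458 and 465 CPM in DKO-labelled oocytes, against 533 and 508 CPM in H2A.Z control oocytes, and 513 and 535 CPM in Mll2 KO oocytes, against 687 and 800.2 CPM in Mll2 WT oocytes. Cenpe, the kinesin that carries chromosomes towards the spindle equator, had 361 and 319 CPM in DKO-labelled oocytes, against 385 and 339 CPM in H2A.Z control oocytes, and 386 and 401 CPM in Mll2 KO oocytes, against 461 and 546 CPM in Mll2 WT oocytes. In both genes Mll2 WT 2 was the highest of the 8 libraries. The log2 fold changes in Mll2 KO oocytes were -0.50 ± 0.10 (SE) for Cenpf (edgeR adjusted p = 0.00196) and -0.35 ± 0.11 (SE) for Cenpe (edgeR adjusted p = 0.0266). For Cenpe the adjusted p was 0.225 without Mll2 WT 2, and 0.106 with library size alone and 0.0933 with the line fitted alone, and 851 bases of its transcript match Gm8669 at 92.8% identity. In DKO-labelled oocytes the log2 fold changes were -0.17 and -0.09.

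Of the 8 condensin genes, 1 was called lower and none higher in DKO-labelled oocytes, and 1 was called higher and 3 lower in Mll2 KO oocytes. The shares of all tested genes were 11.5% lower and 19.4% higher, and 14.4% higher and 16.2% lower, in the same order. The ATPase pair that both condensins share split in the Mll2 line. Smc4 had 806 and 806 CPM in DKO-labelled oocytes, against 950.1 and 878 CPM in H2A.Z control oocytes, and 766 and 774 CPM in Mll2 KO oocytes, against 1107 and 1187 CPM in Mll2 WT oocytes. Smc2 had 87.8 and 93.1 CPM in DKO-labelled oocytes, against 88.4 and 86.5 CPM in H2A.Z control oocytes, and 69.9 and 64.3 CPM in Mll2 KO oocytes, against 38.7 and 48.7 CPM in Mll2 WT oocytes. The Mll2 KO libraries were thus below both WT libraries in Smc4 and above both in Smc2, without overlap. Smc4 fell in Mll2 KO oocytes (log2 fold change -0.57 ± 0.10 SE, edgeR adjusted p = 0.000566) and Smc2 rose there (log2 fold change 0.62 ± 0.12 SE, edgeR adjusted p = 0.00138). Neither was called in DKO-labelled oocytes, with log2 fold changes of -0.18 ± 0.10 (SE) and 0.05 ± 0.12 (SE, edgeR adjusted p = 0.186 and 0.793).

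Ncapg, a HEAT-repeat subunit of condensin I, had 296 and 293 CPM in DKO-labelled oocytes, against 477 and 410.4 CPM in H2A.Z control oocytes, and 366 and 281 CPM in Mll2 KO oocytes, against 465 and 532 CPM in Mll2 WT oocytes. Mutant libraries were below both of their controls in each line. The log2 fold changes were -0.59 ± 0.13 (SE) in DKO-labelled oocytes (edgeR adjusted p = 0.00263) and -0.62 ± 0.13 (SE) in Mll2 KO oocytes (edgeR adjusted p = 0.00175), and the first had an adjusted p of 0.0555 without H2A.Z control 1. Lcorl overlaps 944 bases of Ncapg exons on the opposite strand and had log2 fold changes of 0.31 and -0.33 (edgeR adjusted p = 0.202 and 0.147). Lcorl had 8.13 to 17.8 CPM over the 8 libraries. Ncapg2, the condensin II counterpart, had 78.1 and 70.3 CPM in DKO-labelled oocytes, against 77.9 and 60.5 CPM in H2A.Z control oocytes, and 96 and 107 CPM in Mll2 KO oocytes, against 134 and 138 CPM in Mll2 WT oocytes. It overlapped in the H2A.Z line and was lower in the Mll2 KO libraries. The Mll2 KO call (log2 fold change -0.43 ± 0.12 SE, edgeR adjusted p = 0.016) had an adjusted p of 0.0616 without Mll2 WT 1 and 0.0893 without Mll2 WT 2, and 0.0669 with library size alone. Ncapd2, Ncaph, Ncapd3 and Ncaph2, the remaining condensin I and II subunits, were called in neither comparison.

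**Figure D3:**
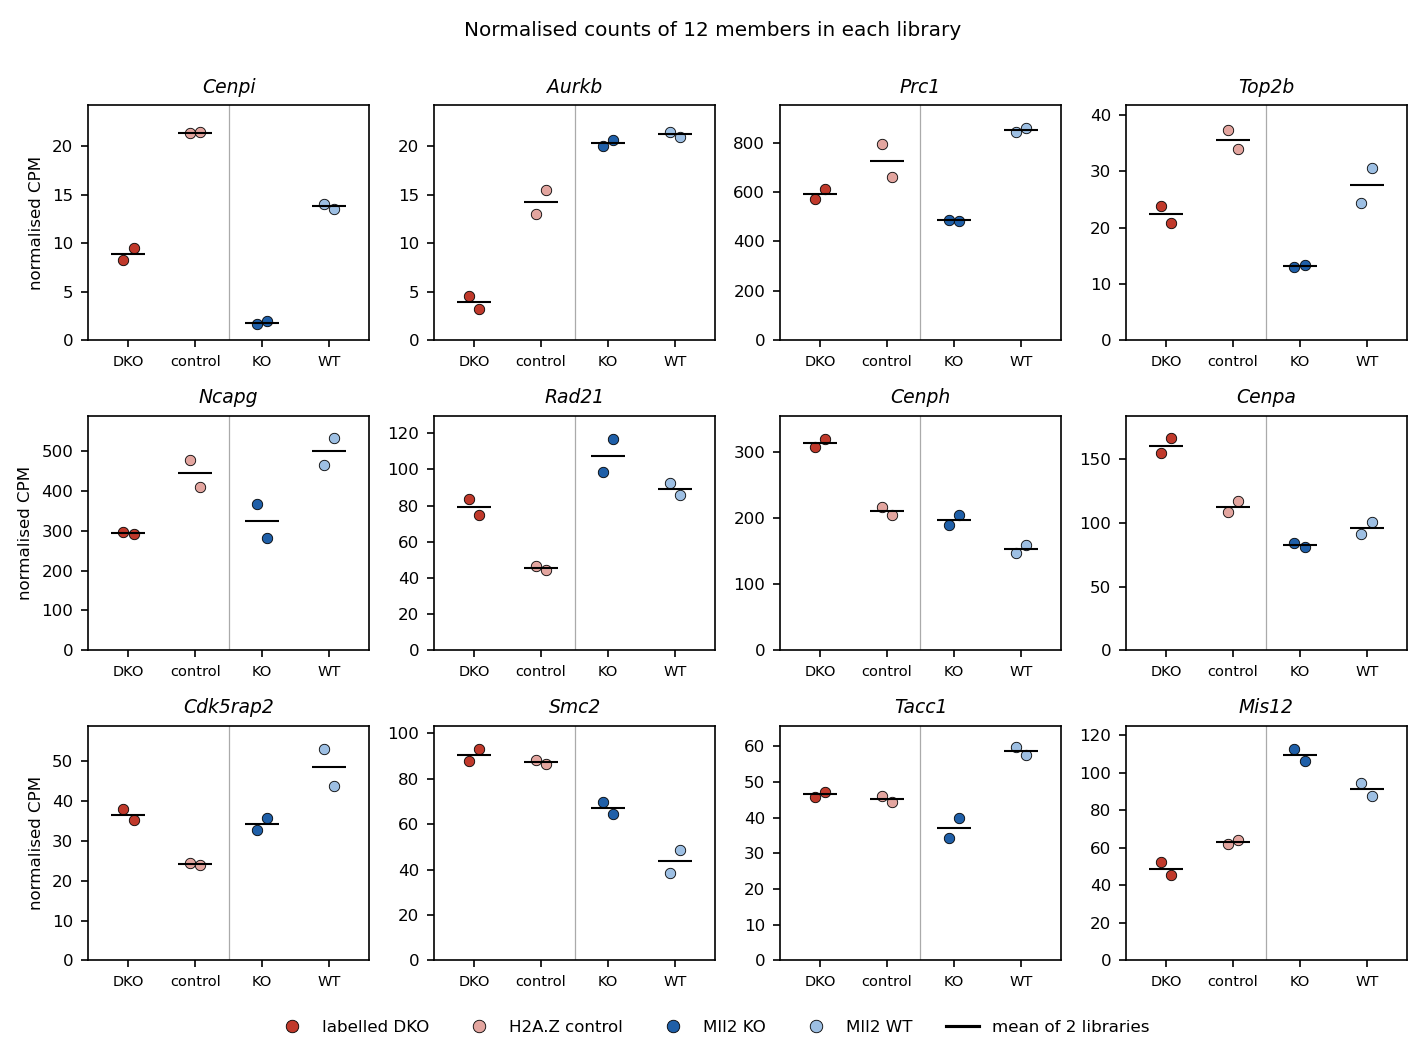
CPM in each of the 8 libraries, with the group mean as a line, for 12 members picked for display after their values were seen. Cenpi, Prc1, Top2b and Ncapg lie lower in both mutants than in their controls, Aurkb lies lowest in the DKO-labelled libraries at 4.61 and 3.28 CPM, and Cdk5rap2 lies above its controls in DKO-labelled and below them in Mll2 KO oocytes.

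Both topoisomerase II genes, whose enzymes pass one DNA duplex through another, were called lower in Mll2 KO oocytes, where 16.2% of all tested genes were. Top2b had 23.8 and 20.9 CPM in DKO-labelled oocytes, against 37.3 and 33.9 CPM in H2A.Z control oocytes, and 13 and 13.3 CPM in Mll2 KO oocytes, against 24.3 and 30.6 CPM in Mll2 WT oocytes. Top2a, the form tied to dividing cells, had 48.5 and 41.2 CPM in DKO-labelled oocytes, against 48 and 39.4 CPM in H2A.Z control oocytes, and 48.1 and 50.7 CPM in Mll2 KO oocytes, against 74.9 and 89.6 CPM in Mll2 WT oocytes. Top2b was below the controls in every mutant library, while Top2a overlapped in the H2A.Z line. Top2b fell 2.08-fold in Mll2 KO oocytes (log2 fold change -1.06 ± 0.15 SE, edgeR adjusted p = 0.00011) and was called lower in DKO-labelled oocytes (log2 fold change -0.67 ± 0.15 SE, edgeR adjusted p = 0.00375). The DKO call had an adjusted p of 0.0532 without H2A.Z control 1 and 0.0585 without DKO 2. Top2a fell in Mll2 KO oocytes (log2 fold change -0.73 ± 0.14 SE, edgeR adjusted p = 0.000833) and was not called in DKO-labelled oocytes (log2 fold change 0.04 ± 0.14 SE, edgeR adjusted p = 0.856). Rarb overlaps 1793 bases of Top2b exons on the opposite strand and had log2 fold changes of -0.12 and -0.39 (edgeR adjusted p = 0.735 and 0.267). Rarb had 2.23 to 10.9 CPM over the 8 libraries, and its part in the Top2b values was not tested.

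The cohesin genes had higher calls alone, 3 of 5 in DKO-labelled oocytes and 1 of 5 in Mll2 KO oocytes, although with each line fitted alone there were 3 higher and 1 lower in DKO-labelled oocytes and none in Mll2 KO oocytes. Among all tested genes 19.4% were called higher in DKO-labelled oocytes and 14.4% in Mll2 KO oocytes, a share that the 1 of 5 is near. With each line alone, 3292 of 15721 genes were called higher and 3485 lower in DKO-labelled oocytes. In Mll2 KO oocytes 1636 of 16127 were called higher and 1830 lower. The median log2 fold change of the cohesin genes was 0.35 above that of all genes in DKO-labelled oocytes and 0.03 below it in Mll2 KO oocytes, and these distances moved by no more than 0.01 with the scaling. Rad21, the kleisin of mitotic cohesin, had 83.6 and 74.8 CPM in DKO-labelled oocytes, against 46.9 and 44.5 CPM in H2A.Z control oocytes, and 98.7 and 117 CPM in Mll2 KO oocytes, against 92.6 and 85.6 CPM in Mll2 WT oocytes. Every mutant library was above both of its controls. Rad21 rose in DKO-labelled oocytes (log2 fold change 0.79 ± 0.12 SE, edgeR adjusted p = 0.000161) and was not called in Mll2 KO oocytes (log2 fold change 0.27 ± 0.12 SE, edgeR adjusted p = 0.0845). Stag1, an alternative cohesin subunit that contacts DNA, had 29.1 and 30.1 CPM in DKO-labelled oocytes, against 19.8 and 16.3 CPM in H2A.Z control oocytes, and 24.1 and 28.2 CPM in Mll2 KO oocytes, against 20.7 and 18 CPM in Mll2 WT oocytes. Its groups did not overlap in either line. It was called higher in both, at 0.72 ± 0.16 (SE) in DKO-labelled oocytes (edgeR adjusted p = 0.00269) and 0.43 ± 0.15 (SE) in Mll2 KO oocytes (edgeR adjusted p = 0.0422) on the log2 scale. The DKO call had an adjusted p of 0.0629 without H2A.Z control 2. The Mll2 KO call had an adjusted p between 0.0592 and 0.313 with each of H2A.Z control 1, H2A.Z control 2, DKO 1, DKO 2, Mll2 WT 1, Mll2 WT 2 and Mll2 KO 2 left out in turn, and 0.1 with the line fitted alone, while its log2 fold change was 0.27 without Mll2 KO 2.

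Stag2, the paralogue of Stag1, had 35.4 and 28.1 CPM in DKO-labelled oocytes, against 25.6 and 20.4 CPM in H2A.Z control oocytes, and 38.7 and 41.2 CPM in Mll2 KO oocytes, against 37.7 and 43 CPM in Mll2 WT oocytes. The DKO-labelled libraries were above both controls and the Mll2 groups overlapped. The DKO call (log2 fold change 0.47 ± 0.16 SE, edgeR adjusted p = 0.0307) had an adjusted p of 0.3 without H2A.Z control 2, 0.309 without DKO 1 and 0.141 without Mll2 WT 2, and 0.0518 with relative log expression scaling and 0.107 with library size alone, while its log2 fold change was 0.31 without H2A.Z control 2 and 0.30 without DKO 1. Smc1a and Smc3, the cohesin ATPases, were called in neither comparison, with log2 fold changes of -0.17 and 0.19 in DKO-labelled oocytes and -0.16 and -0.19 in Mll2 KO oocytes.

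The effects in the mutants were set side by side, since the study names a comparison of both. Called lower in both were 5 members, Tacc3, Prc1, Cenpi, Ncapg and Top2b, which is 5 of the 11 called lower in DKO-labelled oocytes and 5 of the 18 called lower in Mll2 KO oocytes. Called higher in both were 2, Cenph and Stag1, and Cdk5rap2 was called in opposite directions. Over all tested genes 4.39% were called lower in both, 5.86% higher in both and 1.69% higher in DKO-labelled and lower in Mll2 KO oocytes. A further 12 members were called lower and 1, Smc2, higher in Mll2 KO oocytes alone, where 10.1% and 7.86% of all tested genes were. In DKO-labelled oocytes alone 6 were called lower and 6 higher, where 6.37% and 11.9% of all tested genes were. Another 19 members and 51.2% of all tested genes were called in neither. The directions in DKO-labelled oocytes rest on the labels: with the DKO and control labels exchanged, the members called in the same direction in both mutants would have opposite calls and Cdk5rap2 would be lower in both. Falling in one list alone does not show a difference between the mutants, which the interaction contrast tests.

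The interaction contrast, the DKO effect minus the Mll2 KO effect, was called for 14 members, with 11 above 0 and 3 below it. It uses the DKO effect in the direction the labels give. The contrast with that direction turned was not run. Among all tested genes 19.5% were called, 12.9% above and 6.68% below. More than 2-fold were 2 above 0 and 1 below it, where 6.31% and 4.43% of all tested genes were. These were Cenpi at 1.65 ± 0.26 (SE, edgeR adjusted p = 0.000458), which fell further in Mll2 KO oocytes, Cdk5rap2 at 1.10 ± 0.19 (SE, edgeR adjusted p = 0.000906) and Aurkb at -1.79 ± 0.26 (SE, edgeR adjusted p = 0.000208), which fell in DKO-labelled oocytes. Their calls held under every alternative run. The other members above 0 were Birc5, Tacc1, Prc1, Cenpa, Cenpq, Ndc80, Ncapg2, Top2a and Rad21, and the others below it were Mis12 and Smc2. Of the 5 members called lower in both mutants, Cenpi and Prc1 were called in this contrast and the others were not, at 0.05 ± 0.16 (SE) for Tacc3 (edgeR adjusted p = 0.855), 0.03 ± 0.18 (SE) for Ncapg (edgeR adjusted p = 0.922) and 0.39 ± 0.22 (SE) for Top2b (edgeR adjusted p = 0.229). With library size alone, which moves the median of this contrast over all genes to -0.12, against 0.12 with TMM, 3 members were called above 0 and 5 below it. That median was 0.0025 without Mll2 WT 2, -0.0081 without Mll2 KO 1 and 0.057 without Mll2 KO 2. Members called above 0 were 3 without H2A.Z control 2, 5 without DKO 1 or DKO 2, 7 without Mll2 WT 1 and 2 without Mll2 WT 2. Members called below it were 1 without H2A.Z control 2 or DKO 2, 5 without Mll2 KO 1 and 8 without Mll2 KO 2.

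**Figure D4:**
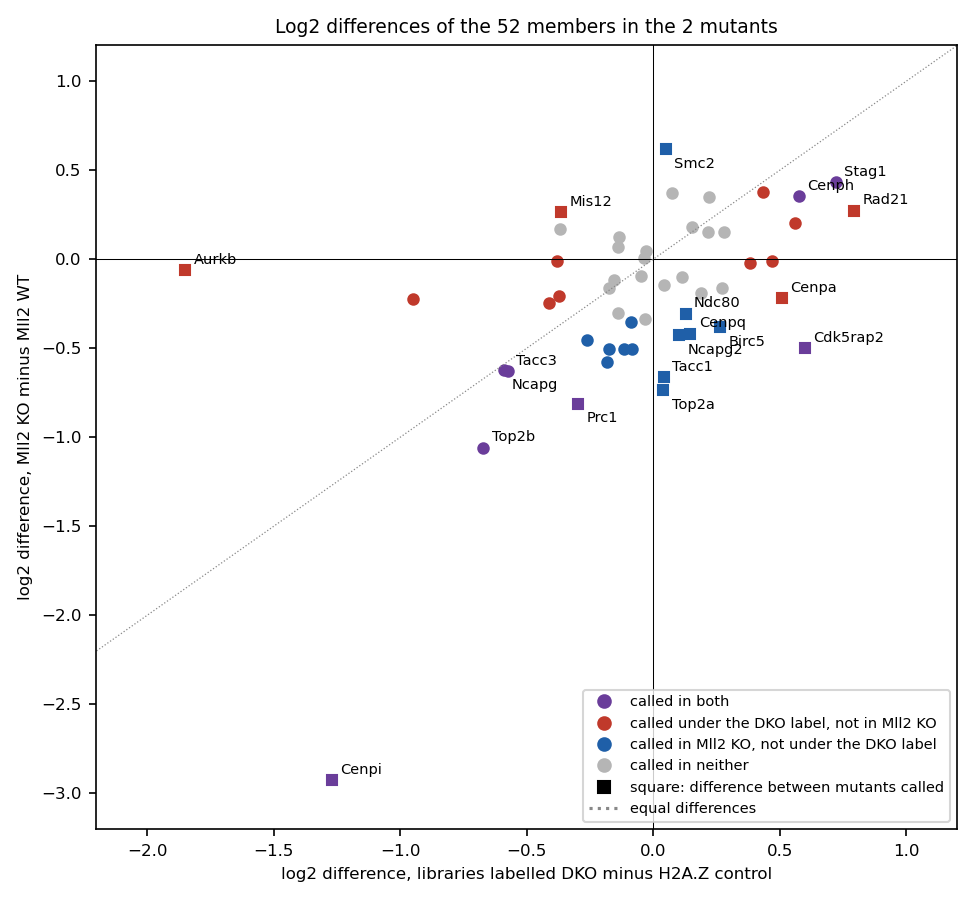
Log2 fold change in Mll2 KO against Mll2 WT oocytes (vertical) plotted against that in DKO-labelled against H2A.Z control oocytes (horizontal), with each of the 52 members a point coloured by the comparison in which it was called, square where the difference between the mutants was called, and with a dotted line of equal change. Cenpi lies at -1.27 and -2.92, Aurkb at -1.85 and -0.06, and Cdk5rap2 at 0.60 and -0.50.

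The companions of these genes were read from 6 lists of other genes in the same pathways, 128 of whose symbols were in the table and 126 tested. Of these, 17 were called higher and 23 lower in DKO-labelled oocytes, and 11 higher and 34 lower in Mll2 KO oocytes. Over all tested genes 19.4% were called higher and 11.5% lower in DKO-labelled oocytes, and 14.4% and 16.2% in Mll2 KO oocytes. The counts of each list are to be read against these shares. With library size alone the counts were 9 higher and 26 lower, and 21 higher and 17 lower. Over all 16847 tested genes they were then 2063 higher and 2467 lower, and 3418 higher and 2013 lower. Of 25 other kinetochore and centromere genes, 5 were called higher and 5 lower in DKO-labelled oocytes, and 2 higher and 9 lower in Mll2 KO oocytes. Itgb3bp, which encodes CENP-R of the same complex as Cenpq, had 4.3 and 6.22 CPM in DKO-labelled oocytes, against 31.8 and 33.9 CPM in H2A.Z control oocytes, and 1.72 and 1.38 CPM in Mll2 KO oocytes, against 25.6 and 23.4 CPM in Mll2 WT oocytes. Its mutant libraries were all far under all controls. Those of Cenpi were also under all controls but by less, at most 9.49 CPM against at least 13.5 CPM. Itgb3bp fell by 6.25-fold in DKO-labelled oocytes (log2 fold change -2.64 ± 0.19 SE, edgeR adjusted p = 2.26e-07) and by 15.8-fold in Mll2 KO oocytes (log2 fold change -3.98 ± 0.22 SE, edgeR adjusted p = 2.43e-09). Casc5, the KNL1 scaffold of the outer kinetochore, and Zwint, its binding partner, fell in Mll2 KO oocytes with log2 fold changes of -0.58 ± 0.12 (SE) and -0.55 ± 0.12 (SE, edgeR adjusted p = 0.00171 and 0.00209). In DKO-labelled oocytes Zwint was called lower as well, at -0.38 ± 0.11 (SE, edgeR adjusted p = 0.0199), and Casc5 was not called, at -0.15 ± 0.12 (SE, edgeR adjusted p = 0.374).

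Of 30 other spindle assembly and midzone genes, 5 were called higher and 6 lower in DKO-labelled oocytes, and 4 higher and 10 lower in Mll2 KO oocytes. Ckap2l, a spindle-associated protein, had 4.66 and 1.85 CPM in DKO-labelled oocytes, against 29.3 and 27.6 CPM in H2A.Z control oocytes, and 1.38 and 1.34 CPM in Mll2 KO oocytes, against 31.2 and 29.9 CPM in Mll2 WT oocytes. It was low in all 4 mutant libraries, with log2 fold changes of -3.12 ± 0.27 (SE) in DKO-labelled oocytes (edgeR adjusted p = 1.29e-06) and -4.48 ± 0.29 (SE) in Mll2 KO oocytes (edgeR adjusted p = 2.98e-08). Kansl3, a subunit of the non-specific lethal complex that binds spindle microtubule minus ends, was called higher in both, at 1.35 ± 0.18 (SE) and 0.88 ± 0.16 (SE, edgeR adjusted p = 4.91e-05 and 0.000892). Kif2c, a microtubule-depolymerizing kinesin, fell in DKO-labelled oocytes with a log2 fold change of -0.57 ± 0.11 (SE, edgeR adjusted p = 0.000889).

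Of 28 gamma-tubulin, augmin and pole genes, 2 were called higher and 6 lower in DKO-labelled oocytes, and 3 higher and 8 lower in Mll2 KO oocytes. Subunits of augmin, which branches new microtubules from existing ones, were called in both directions. Haus4 was called higher in both, at 0.62 ± 0.10 (SE) and 0.82 ± 0.10 (SE, edgeR adjusted p = 0.000217 and 1.38e-05), and Haus1 lower in both, at -0.82 ± 0.15 (SE) and -0.92 ± 0.15 (SE, edgeR adjusted p = 0.000781 and 0.000295). Nedd1, which brings gamma-tubulin rings to the spindle, was called lower in Mll2 KO oocytes at -1.25 ± 0.12 (SE, edgeR adjusted p = 1.5e-06). In DKO-labelled oocytes its log2 fold change was -0.44 ± 0.12 (SE, edgeR adjusted p = 0.00968), with an adjusted p of 0.148 without H2A.Z control 1 and 0.109 without DKO 2. Of 11 aurora and polo kinase genes and activators, none was called higher and 3 lower in DKO-labelled oocytes, and 1 higher and 4 lower in Mll2 KO oocytes. Nek7, a mitotic kinase, fell in DKO-labelled oocytes at -1.08 ± 0.16 (SE, edgeR adjusted p = 0.000129).

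Of 18 other cohesin and chromosome structure genes tested, 3 were called higher and 1 lower in DKO-labelled oocytes, and 1 higher and 3 lower in Mll2 KO oocytes. Ctcf, the insulator protein that positions cohesin, was called higher in DKO-labelled oocytes at 0.53 ± 0.11 (SE, edgeR adjusted p = 0.00162). Smc5, which works in DNA repair and chromosome segregation, fell in Mll2 KO oocytes at -0.89 ± 0.17 (SE, edgeR adjusted p = 0.000942). It was also called lower in DKO-labelled oocytes, at -0.64 ± 0.17 (SE, edgeR adjusted p = 0.0116, and 0.0932 without H2A.Z control 1 and 0.115 without DKO 2). Of 14 tubulin genes and folding factors tested, 2 were called higher and 2 lower in DKO-labelled oocytes and none in Mll2 KO oocytes. Tubb3 was called higher in DKO-labelled oocytes at 0.64 ± 0.12 (SE, edgeR adjusted p = 0.0012) and Tbcb, a tubulin-folding cofactor, lower at -0.59 ± 0.11 (SE, edgeR adjusted p = 0.00078). Of the 52 members, 14 have exons that overlap another protein-coding gene, and 6 share a stretch of at least 300 bases at 90% identity or more with a gene that does not overlap them.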

How the data were processed

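RNA sequencing of pooled full-grown oocytes was done on 8 libraries, 2 in each of 4 groups taken from the sample labels, from 200 pg of SMART-Seq cDNA and the Nextera XT kit, per the labels' protocols. The authors deposited raw counts, whole numbers for each symbol with no normalisation applied. Per the submitters' processing notes, RSEM 1.3.1, STAR 2.7.3 and Trim Galore 0.6.4 were used on mm10. Annotation, strand use and any rounding of estimates are not given in the sources. Totals were 20309233 to 30087863 counts per library, and 8787 of 35976 symbols had 0 counts in every library.

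The tests were run with edgeR 4.0.16 under R 4.3.3: filterByExpr by group (16847 symbols kept), TMM scaling, 1 fit of 4 group means over all libraries, and the robust quasi-likelihood test, with Benjamini-Hochberg adjustment over all tested genes and calls at an adjusted p under 0.05. Residual degrees of freedom were 4, the median prior degrees of freedom 11.8 and the common dispersion 0.0152. The SE was derived from the F statistic. The procedure was tested on simulated data, drawn with the common dispersion for every gene and group. That run therefore cannot show how the procedure does where spread differs between genes or groups. Nothing in the labels says that replicates came from separate animals, so p-values measure the spread between these libraries, which may be technical. The fit gives the 4 groups 1 spread per gene, so the p-values of each comparison also draw on the other line. Replicate spread was unequal. The chi-square per degree of freedom between the libraries of a group was 40.7 in Mll2 KO, 13.3 in Mll2 WT, 6.69 in DKO-labelled and 4.96 in H2A.Z control oocytes. Its part in the calls was not tested. With 2 libraries a group, an exact permutation test cannot pass the threshold, and none was run. Alternatives were RLE scaling, library size alone, no filter, a filter of 5 CPM in 2 libraries, DESeq2 1.42.0, each line fitted alone, a replicate block and leaving out each library.

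Lengths, positions and overlaps came from GENCODE M21 (mm10), near copies from BLAST 2.17.0 over transcripts at 90% identity or more and 300 aligned bases, and promoter windows from RefSeq (GRCm38.p6), matched by symbol. Members, roles, companion lists and markers were chosen with earlier results of these data known. Values in every library are given for members called in at least 1 contrast, and companions named are among the up to 4 called genes of each list with the smallest p in a mutant contrast.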

Additional observations from a re-analysis of the deposited data

Results flagged for a closer look

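For 14 members the effect in DKO-labelled oocytes differed from that in Mll2 KO oocytes by the interaction contrast of edgeR, in which the Mll2 KO log2 fold change is taken from the DKO log2 fold change. The DKO effect enters in the direction the labels give, and the p-values were adjusted over all tested genes. Passenger and spindle genes came first: Aurkb at -1.79 (edgeR adjusted p = 0.000208), lower in DKO-labelled oocytes and near its controls in Mll2 KO oocytes, Birc5 at 0.64 (edgeR adjusted p = 0.0126), Tacc1 at 0.70 (edgeR adjusted p = 0.00915), Prc1 at 0.51 (edgeR adjusted p = 0.0272) and Cdk5rap2 at 1.10 (edgeR adjusted p = 0.000906). Aurkb and Cdk5rap2 held under every alternative. The adjusted p of Birc5 was 0.0722 without H2A.Z control 2, 0.0757 without DKO 2 and 0.0957 without Mll2 WT 2, and 0.0677 with library size alone, while its log2 fold change was 0.42 without Mll2 KO 2. For Tacc1 it was 0.057 without H2A.Z control 2 and 0.0815 without Mll2 WT 2, and 0.0906 with library size alone, while its log2 fold change was 0.46 without Mll2 KO 1. For Prc1 it was between 0.071 and 0.184 with each of H2A.Z control 2, DKO 1, DKO 2, Mll2 WT 1 and Mll2 WT 2 left out in turn, and 0.182 with library size alone.

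Among kinetochore genes the contrast was 0.73 for Cenpa (edgeR adjusted p = 0.0031), 1.65 for Cenpi (edgeR adjusted p = 0.000458), 0.57 for Cenpq (edgeR adjusted p = 0.0289), 0.43 for Ndc80 (edgeR adjusted p = 0.0451) and -0.63 for Mis12 (edgeR adjusted p = 0.011). Cenpi held under every alternative. The adjusted p of Cenpa was 0.0622 without Mll2 WT 2 and that of Mis12 0.0659 without H2A.Z control 2 and 0.0833 without DKO 2. For Cenpq it was between 0.0535 and 0.245 with each of H2A.Z control 1, H2A.Z control 2, DKO 1, DKO 2, Mll2 WT 2 and Mll2 KO 2 left out in turn, and 0.169 with library size alone, while its log2 fold change was 0.35 without Mll2 WT 2 and 0.33 without Mll2 KO 2. For Ndc80 it was between 0.0508 and 0.422 with each of H2A.Z control 1, H2A.Z control 2, DKO 1, DKO 2, Mll2 WT 1, Mll2 WT 2 and Mll2 KO 2 left out in turn, and 0.083 with relative log expression scaling, 0.382 with library size alone and 0.0891 with DESeq2, while its log2 fold change was 0.23 without Mll2 WT 2.

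Among chromosome structure genes the contrast was -0.57 for Smc2 (edgeR adjusted p = 0.0285), 0.53 for Ncapg2 (edgeR adjusted p = 0.045), 0.77 for Top2a (edgeR adjusted p = 0.0104) and 0.52 for Rad21 (edgeR adjusted p = 0.0362). The adjusted p of Smc2 was between 0.0784 and 0.176 with each of H2A.Z control 1, H2A.Z control 2, DKO 1, DKO 2 and Mll2 WT 1 left out in turn, and that of Top2a 0.0807 without H2A.Z control 2, 0.0724 without DKO 1 and 0.145 without Mll2 WT 2, and 0.0666 with library size alone. For Ncapg2 it was between 0.0759 and 0.26 with each of H2A.Z control 2, DKO 1, DKO 2, Mll2 WT 1, Mll2 WT 2 and Mll2 KO 1 left out in turn, and 0.0854 with relative log expression scaling, 0.276 with library size alone and 0.0899 with DESeq2, while its log2 fold change was 0.32 without Mll2 KO 1. For Rad21 it was between 0.0593 and 0.162 with each of H2A.Z control 1, H2A.Z control 2, DKO 1, DKO 2, Mll2 WT 1, Mll2 WT 2 and Mll2 KO 1 left out in turn, and 0.0767 with relative log expression scaling, 0.299 with library size alone and 0.0806 with DESeq2, while its log2 fold change was 0.27 without Mll2 KO 1.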

How the results depend on the processing

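Members called higher in DKO-labelled oocytes were 9 in all, 6 with RLE scaling, 5 with library size alone, 10 with no filter, 7 with DESeq2 and 9 with the line fitted alone, and 5 to 9 when single libraries were left out. Those called lower were 11, 12 with RLE scaling, 16 with library size alone and 23 with the line fitted alone, and 4 to 21 when single libraries were left out. In Mll2 KO oocytes 3 were called higher, 9 with library size alone, 5 with the filter of 5 CPM, 1 with the line fitted alone, and 1 to 7 with single libraries left out. The 18 called lower were 13 with library size alone, 12 with the line fitted alone and 12 to 23 with single libraries left out, the 12 without Mll2 WT 2. The interaction contrast had 11 members above 0 and 3 below, 3 and 5 with library size alone, and 2 to 12 and 1 to 8 with single libraries left out. Counts over all tested genes moved as well. In the DKO comparison they went from 3269 higher and 1929 lower to 3292 and 3485 with the line fitted alone. In the Mll2 comparison they went from 2428 higher and 2730 lower to 1636 and 1830. The median log2 fold change of all genes in the DKO comparison went from 0.12 to 0.0056 with the line fitted alone. It was 0.0037 without Mll2 KO 1 and 0.0032 without Mll2 KO 2. The cause of these moves was not tested. Where a group was left with 1 library, it was assumed to vary like the others. No called member reversed.

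Replicate numbers were not taken as pairs: deviations of same-numbered libraries correlated across genes by 0.0395 in the H2A.Z line and -0.0221 in the Mll2 line. With a replicate block, 9 members were called higher and 9 lower in DKO-labelled oocytes, 2 and 17 in Mll2 KO oocytes, and 9 and 3 in the interaction contrast. The block's adjusted p was 0.0916 for Prc1 and 0.0666 for Cenpc1 in DKO-labelled oocytes, 0.053 for Ndc80 and 0.0588 for Stag1 in Mll2 KO oocytes, and 0.0502 for Prc1 and 0.0698 for Ndc80 in the interaction contrast, and no other member's call was lost. How depth limits the members at few CPM was not tested.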
